A study of Mus musculus with 4 samples.

Results

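C1q macrophages of the fracture callus are the cells described here. They were selected on measured values, with the UMIs (unique molecular identifiers, each marking 1 captured RNA molecule) of C1qa, C1qb and C1qc together at least 0.05% of the cell's UMIs and at least 3 UMIs, S100a8 with S100a9 under 1%, Acp5 with Ctsk under 0.2% and Col2a1 under 1%. A cell also needed at least 500 UMIs, at least 200 genes and at most 10% mitochondrial UMIs. The rule took 148 of 14451 callus cells, 72 of 7133 in the control library and 76 of 7318 in the GC library, out of 23216 cells in the 4 libraries of the study. These are shares of 1.01% (95% interval 0.791% to 1.27%) and 1.04% (0.819% to 1.30%), with exact Clopper-Pearson intervals. All intervals here are 95% intervals for counting error only.

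The study used single-cell RNA-Seq to look at the cells of fracture callus and trabecular bone under glucocorticoid (GC) excess. The mice were 20-week-old C57BL/6J males, given placebo (control) or prednisolone at 6.25 mg/kg/d (GC), with tissue from week 2. Delivery is a slow-release pellet in every library's label, whereas the study's text gives daily injection in the fracture model. There was 1 library per tissue and condition, and the number of mice behind each was not given in the sources used here, so the conditions were compared without a test, and library and treatment cannot be told apart. The callus libraries held 95852254 UMIs in control and 64388215 in GC. Their deposits differ, since the GC callus matrix lists 7762 barcodes of at least 500 UMIs and the control matrix lists 6794880, empty droplets included. The C1q macrophages had a median of 6313.5 UMIs per cell in control and 5449.5 in GC, 571720 and 490877 in sum. After the filters 12 barcodes occurred in both callus libraries, and 0 were in both sets of C1q macrophages.

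C1q is the recognition molecule of the classical complement pathway, built from the A, B and C chains of neighboring genes. Most complement proteins come from the liver, but C1q is made largely by tissue macrophages, where it binds dying cells and immune complexes and helps in their clearance. In bone and healing fractures, macrophages take up debris and dying cells, handle iron, and secrete factors such as oncostatin M and Igf1 that act on bone-forming cells, while glucocorticoids are known to restrain inflammatory cytokine genes in macrophages and to raise genes such as Mt1, Fkbp5 and Tsc22d3.

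The chains lie side by side on the minus strand of chromosome 4 in GRCm38, with C1qb at chr4:136880129-136886187, C1qc at chr4:136889804-136893065 and C1qa at chr4:136895917-136898803 (GENCODE M21). The sequences before C1qb and C1qc are shown because these genes defined the cells, and those before the chemokine genes Cxcl2 and Cxcl3 because both were lower in the GC library and hold an NF-kB motif. They come from RefSeq, build GRCm38.p6, and run 5′ to 3′ on the gene's strand, up to the base before the earlier of the RefSeq and GENCODE starts. Of the 10 genes looked up, 6 had an entry, and C1qa had none. The regions are chr4:136886201-136886450 (C1qb, minus strand), chr4:136893066-136893164 (C1qc, minus strand), chr5:90903649-90903870 (Cxcl2, plus strand) and chr5:90785851-90786100 (Cxcl3, plus strand). Capitals mark matches to letters searched on both strands: GAGGAA, the core bound by PU.1, and TGCTGA, the core bound by Maf factors, before the C1q genes, and, before the chemokine genes, an NF-kB motif that reads GGGA, any base, then TTTCC.
C1qb: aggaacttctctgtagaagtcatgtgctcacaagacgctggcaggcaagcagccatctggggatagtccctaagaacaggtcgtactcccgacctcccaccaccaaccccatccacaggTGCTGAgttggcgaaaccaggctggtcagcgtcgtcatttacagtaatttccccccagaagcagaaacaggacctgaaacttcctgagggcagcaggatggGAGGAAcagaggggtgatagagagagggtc
C1qc: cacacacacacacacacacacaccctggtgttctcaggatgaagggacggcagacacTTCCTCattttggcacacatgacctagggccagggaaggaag
Cxcl2: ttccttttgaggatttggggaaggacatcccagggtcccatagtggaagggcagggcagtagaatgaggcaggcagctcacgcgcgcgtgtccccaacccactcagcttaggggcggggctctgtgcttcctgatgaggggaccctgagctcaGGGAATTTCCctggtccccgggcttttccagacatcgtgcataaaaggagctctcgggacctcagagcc
Cxcl3: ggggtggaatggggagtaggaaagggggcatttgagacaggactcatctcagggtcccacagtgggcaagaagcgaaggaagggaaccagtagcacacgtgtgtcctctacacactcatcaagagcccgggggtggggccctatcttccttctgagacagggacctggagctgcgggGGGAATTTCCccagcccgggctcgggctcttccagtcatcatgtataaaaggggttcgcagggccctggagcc

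Counted from the RefSeq start to the first base of the match, GAGGAA began 30 bases before the start of C1qb and TGCTGA 131 bases before it. Before C1qc, GAGGAA matched on the opposite strand, 193 bases before the start. The NF-kB motif began 97 bases before Cxcl2 and 73 bases before Cxcl3. No capitals overlap. Il1b, also lower in the GC library, had an entry with 0 matches to these motifs in its 250 bases, and Mrc1 had 3 matches to GAGGAA and 0 to the others, and neither sequence is shown. In the 250 bases before the start of 32851 genes, GAGGAA occurred in 23.3%, TGCTGA in 16.1% and the NF-kB motif in 0.356%. Cxcl2 and Cxcl3 were shown because they hold the motif, so their matches cannot be weighed against these shares. A match describes the letters and shows no binding.

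C1q itself was used by the rule and is given as a description. C1qa stood at 1511 CPM (95% interval 1412 to 1615) in the control library and 1450 (1346 to 1561) in the GC library, where CPM is the gene's share of the summed UMIs of the cells on the usual CPM scale. C1qb stood at 1564 and 1100 CPM, and C1qc at 967 and 890. The C1q macrophages held 2311 of the 2651 C1q UMIs of all filtered control callus cells and 1689 of 2085 in GC. The C1q share per cell had a median of 0.367% in control and 0.323% in GC, from 0.0506% to 1.77% and from 0.0567% to 1.24%. Just outside the threshold the nearest cells with at least 3 C1q UMIs had 0.0486% and 0.0441%. The other limits took away 2 of 74 control cells and 11 of 87 GC cells. In GC, 7 of these were over the Col2a1 limit, the nearest at 1.77% against 0.996% in the last cell kept. A count of exactly 3 C1q UMIs carried 4 control and 3 GC cells.

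The label was checked against macrophage genes that the rule did not use. Csf1r, the receptor for the macrophage growth factor Csf1, stood at 311 CPM (267 to 361) in control and 399 (345 to 459) in GC. Mrc1, the mannose receptor CD206, stood at 290 (248 to 338) and 340 (291 to 396). Adgre1, which encodes F4/80, stood at 266 and 314. B cells of the same libraries, which should lack these genes, gave the level that free RNA can reach, at most 4.45 CPM for any of the 3 genes. After each cell was thinned to 1000 UMIs, 33.8% of 68 control C1q macrophages held a Csf1r UMI (22.8% to 46.3%) and 24.0% of 75 GC cells (14.9% to 35.3%), against 0.256% and 0% of B cells. Before thinning, the shares were 79.2% and 84.2%, and 1.26% and 0.725% in B cells, whose medians were 2164 and 1982 UMIs. For B cells in GC, 0 of 133 cells allows a share of up to 2.26%, taking the limit for a count of 0 as 3 counts of the total, here and wherever such a limit is given. Thinning left out 4 control and 1 GC C1q macrophages and 7 and 5 B cells.

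Other macrophage genes were also well above the B cells. The lysosomal glycoprotein gene Cd68 stood at 425 and 550 CPM, and Ms4a7 at 565 and 619. Lyz2, the lysozyme of myeloid cells, stood at 6919 and 6930. All of these values are control first and GC second. Of the 14 genes in the resident macrophage list, 10 in control and 11 in GC had a UMI. Lyve1 and Timd4 had 0 UMIs in both libraries, which allows up to 5.25 CPM in control and 6.11 in GC. Cd163 had 0 UMIs in control and stood at 2.04 CPM in GC, in 1 cell. Folr2 stood at 22.7 and 46.9 CPM, in 7 and 15 cells. The name C1q macrophage therefore held on its markers in both libraries.

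Compared with callus monocytes low in C1q (cells picked on Csf1r and Ly6c2, 335 in control and 294 in GC), the C1q macrophages were higher in single genes such as Pf4, Mrc1, Igf1, Gas6 and Vcam1. In both libraries 11.1% of 2791 genes were at least 1.5-fold higher in the C1q macrophages, and 10.3% at least 1.5-fold lower. Pf4, a chemokine also made by some tissue macrophages, stood at 745 CPM in control and 405 in GC, against 17.5 and 5.66 in monocytes. Mrc1 stood at 8.22 and 2.83 CPM in monocytes. Igf1, the insulin-like growth factor, stood at 149 and 246 CPM in C1q macrophages and 2.74 and 4.24 in monocytes. These 3 genes were higher by more than 4 on the log2 scale in each library.

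Gas6, which bridges dying cells to receptors of the TAM family, stood at 147 and 85.6 CPM in C1q macrophages against 1.10 and 0.707 in monocytes. Vcam1, an adhesion molecule found on macrophages that hold erythroblasts, stood at 229 and 145 CPM against 10.4 and 2.83. The chemokine Ccl8 had 57.7 and 85.6 CPM and 0 in the monocytes of both libraries. All 3 were therefore higher in the summed UMIs of both libraries. Ccl8, however, came from 5 control and 9 GC cells, with 18 of 33 control UMIs and 17 of 42 GC UMIs in 1 cell. In the other direction, the granule protease genes Elane and Prtn3 stood at 334 and 391 CPM in control monocytes and at 0 and 3.5 CPM in control C1q macrophages. The monocyte class rests on Csf1r and Ly6c2 alone and may hold other cells. It also had Mpo at 306 CPM in control and 281 in GC, and its makeup was not tested. Plac8 stood at 2430 and 1214 CPM in monocytes against 117 and 36.7, and Vcan, a proteoglycan of classical monocytes, at 152 and 175 against 3.5 and 6.11. Ly6c2 was lower too, but it picked the monocytes and is no finding.

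By gene list, 14 of 21 lysosome genes tested were higher than in monocytes in both libraries and 0 lower, with medians of 1.09 and 1.19 on the log2 scale in control and GC. For complement 5 of 8 were higher, among them the C1q genes of the rule, and for lipid handling 6 of 14, with 1 lower in each list. Class II antigen presentation genes had 3 of 5 higher and 0 lower. Genes of monocyte origin had 8 of 9 lower, among them Ly6c2, which picked the monocytes, and the inflammatory list had 2 of 8 lower and 0 higher. The alternative activation and scavenger list was split, with 3 of 8 higher and 3 lower and medians of 0.14 and 0.28, and chemokines and receptors had 2 of 11 higher and 4 lower. No test of a list was made.

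Osteoclasts of the callus (picked on Acp5 and Ctsk, 81 in control and 96 in GC) come from the same lineage. Here 13.7% of 3142 genes were higher in C1q macrophages in both libraries and 18.3% lower. Lyz2 stood at 28.2 and 18.1 CPM in osteoclasts. The chemokine Ccl4 stood at 656 and 744 CPM in C1q macrophages and 1.73 and 1.70 in osteoclasts, and Selenop, a secreted selenium carrier, at 894 and 2090 against 8.64 and 8.48. Mrc1 stood at 0 and 1.13 CPM in osteoclasts. All of these were higher in the summed UMIs of the C1q macrophages, but Ccl4 came from 20 cells of each library, with 153 of its 365 GC UMIs in 1 cell. The bone-resorbing genes stood the other way. Mmp9 had 14.0 and 10.2 CPM in C1q macrophages and 2630 and 3135 in osteoclasts, and Dcstamp, needed for cell fusion, 3.5 and 2.04 against 140 and 147. Csf1r, in contrast, was measured at 364 and 504 CPM in osteoclasts, the same order as in C1q macrophages.

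Of 12 fatty acid oxidation genes tested against osteoclasts, 6 were lower in C1q macrophages in both libraries and 0 higher, with medians of -0.71 and -0.65. The 14 lipid handling genes had 11 higher and 0 lower. The 4 class II genes tested were all higher, and 9 of 9 osteoclast genes were lower, Acp5 and Ctsk of the rule among them.

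**Figure D1:**
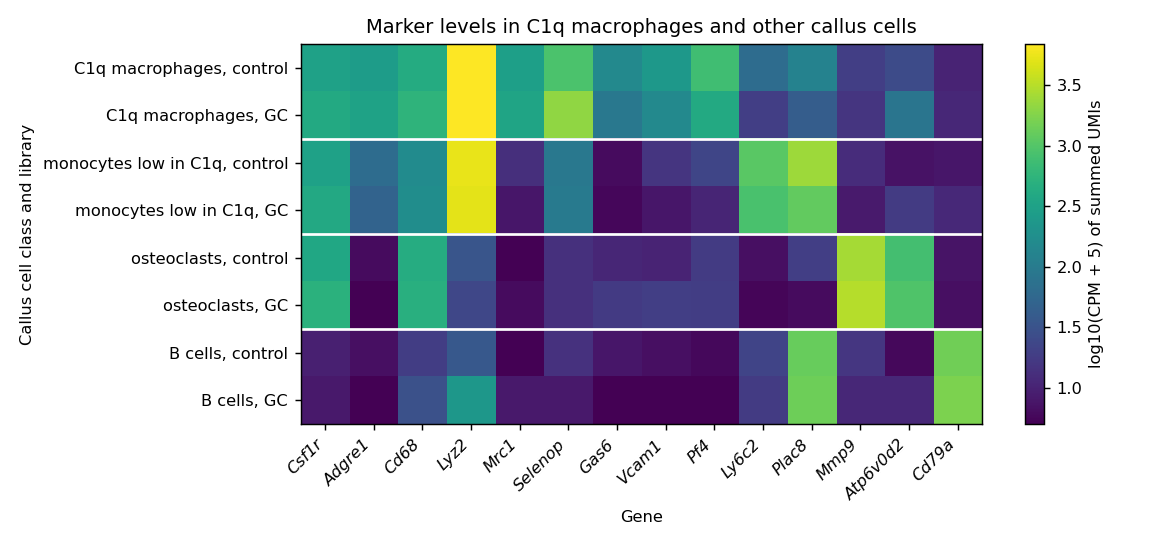
Levels of 14 marker genes as log10(CPM + 5) in 4 callus cell classes of the control and GC libraries, from dark (low) to yellow (high). In summed UMIs, Mrc1, Gas6, Vcam1 and Pf4 were high in the C1q macrophages alone among these classes, and Mmp9 and Atp6v0d2 in the osteoclasts. Gas6 and Vcam1 came mostly from 1 cluster of the C1q macrophages.

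The same rule applied to trabecular bone gave 5 of 3977 cells in control and 8 of 4788 in GC. With fewer than 50 cells in each, no levels were compared between the tissues.

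The C1q macrophages were not uniform. Leiden clustering of the 148 cells of both libraries gave 3 clusters, and each is called by its leading gene, that with the highest log2 ratio over the other C1q macrophages. A cluster's defining genes are no test, and the glucocorticoid response, fatty acid oxidation, glycolysis, inflammatory, cartilage and bone lists took no part in the clustering. The first cluster, of 47 cells, was led by Cxcl3, Acod1, Ccl5, Il1b, Clec4e, Ccr1 and Slpi, and class II genes came after them. Its H2-Aa, a chain of class II, stood at 6767 CPM against 1014 in the other C1q macrophages, Cxcl3 at 680 against 31.4, and Il1b, which was not used in the clustering, at 762 against 79.2. Its C1q share was low for the set, with a median of 0.163%.

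A larger cluster of 69 cells was led by Slc40a1, Gas6, Postn, Vcam1, Maf, Selenop, Mmp13, Hbb-bs, Igfbp4 and Hbb-bt, with Igf1 and Mrc1 further down. Postn and Mmp13 there came mostly from 1 GC cell, and Hbb-bs and Hbb-bt mostly from 1 control cell, both described below. Slc40a1, the iron exporter ferroportin, had 213 CPM there and 0 UMIs in the other cells. Selenop stood at 2960 CPM against 229, and Mrc1 at 597 against 84.9. Gas6 stood at 260 against 5.09 and Vcam1 at 401 against 20.4, so their levels over all C1q macrophages rested mostly on this cluster. The median C1q share was 0.542%. The remaining 32 cells were led by Acp5 at 330 CPM against 71.5, then Nhp2, S100a4 at 3364 against 902 and S100a10. They had more UMIs per cell, a median of 9111.5, and a C1q share of 0.273%. Cd207, which encodes langerin, had 68.5 CPM there and at most 2.11 in the others. Acp5 is an osteoclast marker and was the only fixed marker among the 10 leading genes of that cluster, so for several of the genes below the values in single clusters are given beside the level over all cells.

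Each cluster held cells of both libraries in similar numbers. The cluster led by Cxcl3 had 25 control and 22 GC cells, 34.7% of the control cells (23.9% to 46.9%) and 28.9% of the GC cells (19.1% to 40.5%). The cluster led by Slc40a1 had 32 and 37 cells, 44.4% and 48.7%, and that led by Acp5 had 15 and 17, 20.8% and 22.4%. The intervals of each pair overlap.

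**Figure D2:**
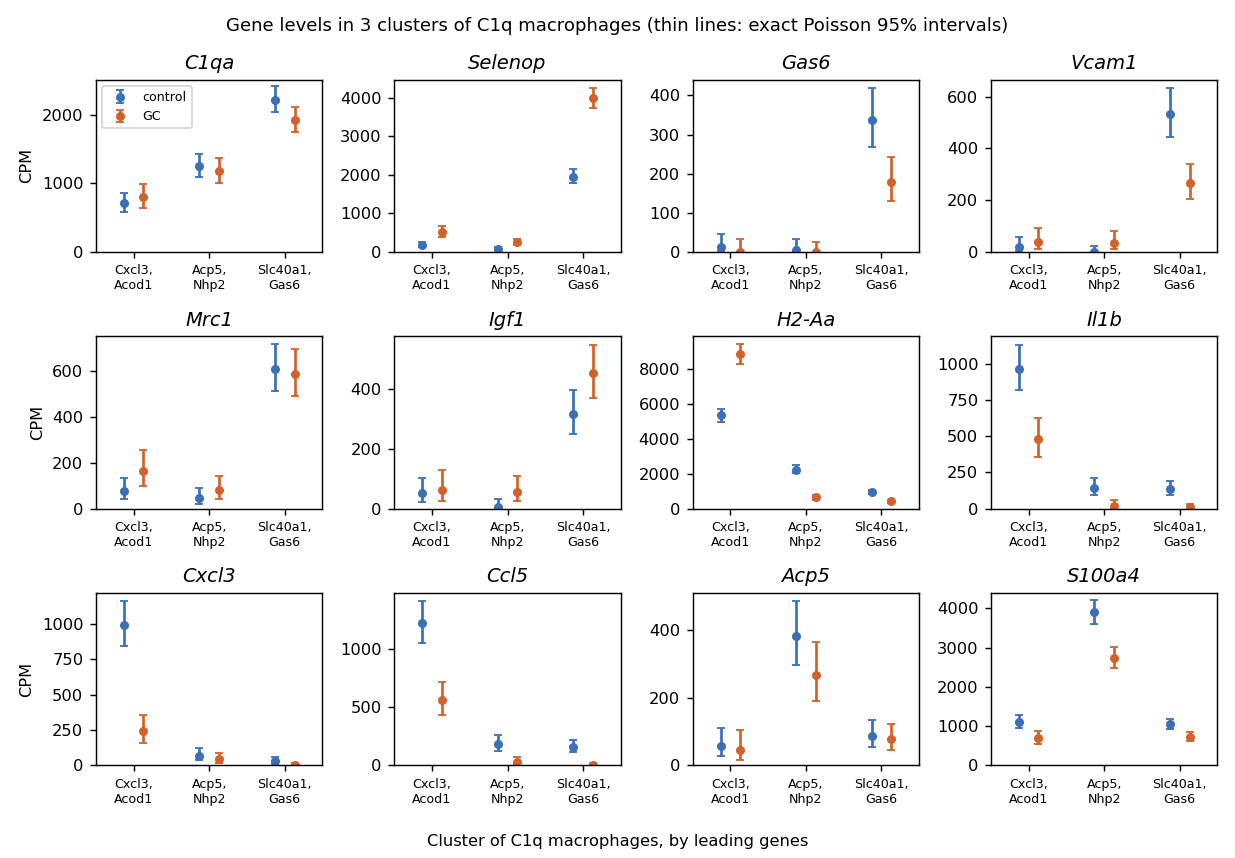
Summed level in CPM of 12 genes in the 3 clusters of C1q macrophages, control in blue and GC in orange, with exact Poisson 95% intervals as thin lines. Gas6, Vcam1 and Mrc1 were high in the cluster led by Slc40a1, and H2-Aa, Il1b, Cxcl3 and Ccl5 in the cluster led by Cxcl3.

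Between the callus libraries, the question was how C1q macrophages of GC-treated mice differ from those of controls. The cytokine genes Il1b and Osm and the chemokine genes Ccl5 and Cxcl2 were lower in the GC library, while Mt1, Selenop, Ctsl, Il1rn and Gpnmb were higher. Most gene lists held members in both directions or few past the fold. Among 1772 genes with at least 100 UMIs over both libraries, 210 were at least 1.5-fold higher in GC (11.9%) and 149 at least 1.5-fold lower (8.41%), with a median log2 ratio of 0.06. Log2 ratios were taken with 5 CPM added, which understates the ratios of genes at low levels. With the libraries scaled by the median ratio of genes instead, 160 were higher and 187 lower, so that 46.1% of the genes past the fold were higher, against 58.5%. The monocytes, osteoclasts and B cells given beside these values come from the same pair of libraries.

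**Figure D3:**
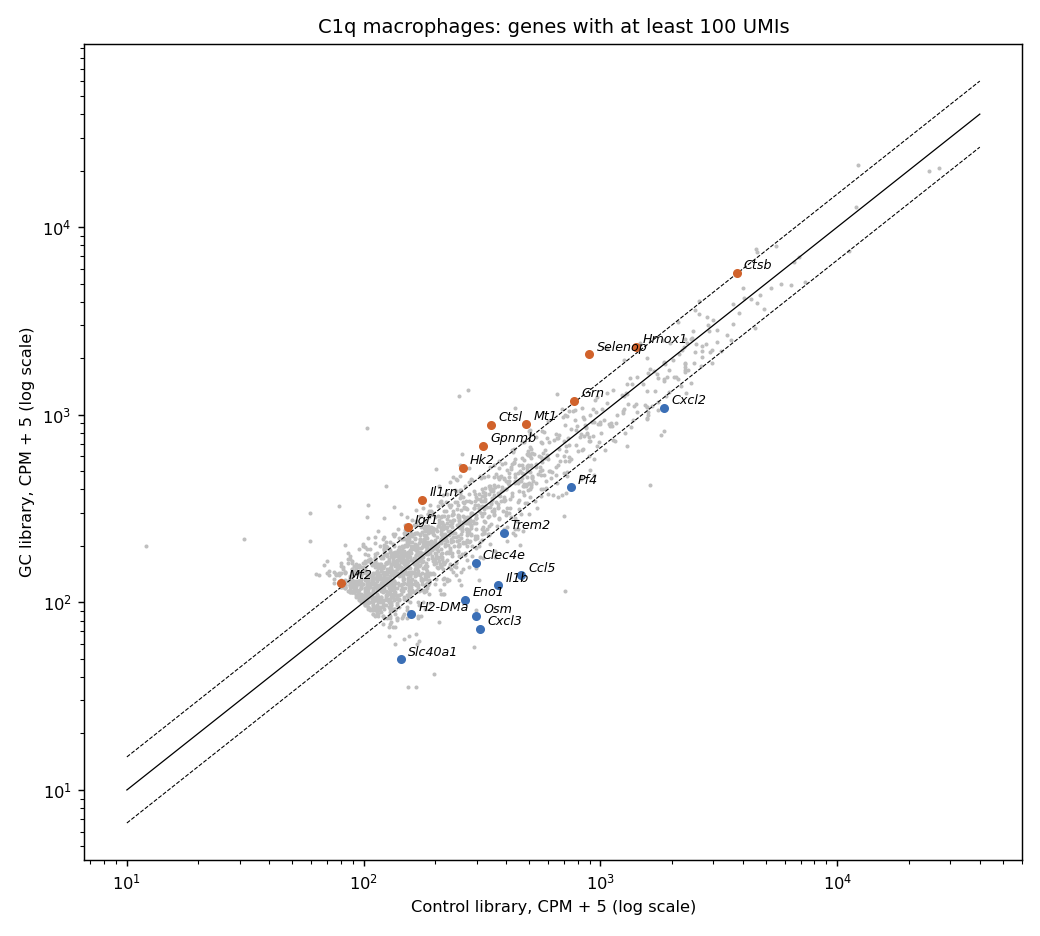
Each point is 1 of 1772 genes in C1q macrophages, with CPM + 5 in the control library on the x axis and in the GC library on the y axis, both on log scales. The solid line marks equal levels and the dashed lines 1.5-fold, and named genes are orange where higher in GC and blue where lower.

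Il1b (chr2:129364570-129371139, minus strand), the cytokine interleukin 1 beta, stood at 366 CPM (318 to 419) in control and 118 (89.7 to 153) in GC. This is a level 3.09-fold lower in GC (2.30 to 4.21), with a UMI in 28 of 72 control cells and 10 of 76 GC cells. Of the 58 GC UMIs, 38 came from 1 cell, and without the highest cell of each library the log2 ratio went from -1.59 to -2.81. After thinning, 17.6% of control cells held a UMI (9.46% to 28.8%) and 4% of GC cells (0.833% to 11.2%), against 2.05% and 1.5% of B cells. Il1b stood lower in GC in every cluster, at log2 ratios of -1.01, -3.39 and -2.53 in the clusters led by Cxcl3, Slc40a1 and Acp5. Monocytes held 872 and 317 CPM.

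Osm (chr11:4236420-4241026, plus strand) encodes oncostatin M, a cytokine through which macrophages are known to act on bone-forming cells. It stood at 294 CPM (251 to 342) in control and 79.4 (56.5 to 109) in GC, 3.70-fold lower (2.60 to 5.38), in 44 and 24 cells. No single cell carried it, since the log2 ratio was -1.82 with all cells and -1.86 without the highest cell of each library. In the clusters it was -1.03 (Cxcl3), -2.53 (Slc40a1) and -2.30 (Acp5). The thinned shares were 23.5% (14.1% to 35.4%) and 6.67% (2.20% to 14.9%), and 0.769% and 0.752% in B cells. Monocytes went the same way, with 379 and 67.2 CPM.

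Chemokine genes went both ways. Of 11 chemokine and receptor genes tested, 4 were past 1.5-fold lower and 2 higher, with a median of -0.42. Among all 1772 genes, 8.41% were past 1.5-fold lower and 11.9% higher. These shares also stand beside each list count that follows, and no list was tested against them. Ccl5 stood at 457 CPM (403 to 515) in control and 134 (104 to 171) in GC, 3.40-fold lower, in 16 and 11 cells, and it was lower in each cluster. Cxcl2, which attracts neutrophils, stood at 1856 (1746 to 1971) and 1084 (994 to 1180), 1.71-fold lower. Cxcl3, which is outside that list, stood at 304 and 67.2 CPM. Cxcl3 came from 18 control and only 4 GC cells, and 25 of its 33 GC UMIs from 1 of them. The monocytes had 2299 and 845 CPM of Cxcl2 but 294 and 539 of Ccl5, so the difference in Ccl5 ran the other way there. Ccl2 and Ccl9, the other lower genes of the list, stood at 180 and 114 CPM and at 212 and 128. Ccl3, at 63.0 and 153 CPM, and Ccl7, at 91.0 and 141, were higher in GC.

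The inflammatory list did not go one way. Of its 9 genes tested 2 were lower, Il1b and the C-type lectin gene Clec4e (292 and 157 CPM), and 1 was higher, with a median of 0.21. The log2 ratio of Clec4e was -1.05 in the cluster led by Cxcl3, 0.27 in that led by Slc40a1 and -0.06 in that led by Acp5. In monocytes Clec4e ran the other way, at 357 and 545 CPM. The higher gene was Tnf, at 80.5 CPM (58.9 to 107) in control and 157 (124 to 196) in GC, in 20 and 26 cells. Ptgs2 stood at 203 and 255 CPM, Nfkbia at 784 and 827, and Nlrp3 at 166 and 171, each within 1.5-fold. Il1rn, the receptor antagonist that blocks interleukin 1, stood at 171 (139 to 209) and 346 (296 to 402), 2.02-fold higher in GC (1.57 to 2.62). It was higher in each cluster, at 0.67 (Cxcl3), 1.17 (Slc40a1) and 1.35 (Acp5) on the log2 scale, and 85.0 and 176 CPM in monocytes. Thinned shares for Il1rn were 22.1% and 18.7% of cells, against 0 of 390 and 0 of 133 B cells, which allows up to 0.769% and 2.26%, so the share of cells with a UMI did not follow the CPM. Socs3, a feedback inhibitor of cytokine signaling, stood at 254 and 118 CPM, 2.15-fold lower (1.57 to 2.96).

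Among glucocorticoid response genes, 3 of 9 tested were past 1.5-fold higher and 0 lower, with a median of 0.12. Over all genes 11.9% were higher and 8.41% lower, with a median of 0.06. Mt1 (chr8:94179082-94180327, plus strand), a metal-binding metallothionein, stood at 481 CPM (426 to 541) in control and 886 (805 to 973) in GC, 1.84-fold higher (1.58 to 2.15). It was higher in each cluster, at 0.99, 0.89 and 0.65 on the log2 scale in those led by Cxcl3, Slc40a1 and Acp5. B cells held 321 and 443 CPM. Mt2, its neighbor, stood at 75.2 (54.4 to 101) and 122 (93.3 to 157), against 84.5 and 143 in B cells, so its level was not above that of a class used as background. Rgcc stood at 99.7 and 161 CPM, in 24 cells of each library.

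Sgk1, a kinase gene induced by corticosteroids, stood at 833 and 1082 CPM, a ratio of 1.30 (1.15 to 1.47) that is under 1.5-fold. The classical targets Fkbp5 and Tsc22d3 were thinly covered. Fkbp5 stood at 17.5 (8.39 to 32.2) and 28.5 (15.6 to 47.9), and Tsc22d3 at 42.0 (26.9 to 62.5) and 65.2 (44.6 to 92.0), with ratios of 1.63 (0.674 to 4.10) and 1.55 (0.886 to 2.76), so a difference was not detectable at this depth. Klf9 stood at 50.7 and 106 CPM. Dusp1 stood at 572 and 473, and Zfp36, which destabilizes cytokine messages, at 369 and 275, both lower in GC but within 1.5-fold. The receptor gene Nr3c1 stood at 87.5 (64.9 to 115) and 122 (93.3 to 157), a ratio of 1.40 (0.944 to 2.08). Hsd11b1, which encodes the enzyme that reactivates glucocorticoids, had 3 UMIs in control and 0 in GC, and Nr3c2 had 0 in both.

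**Figure D4:**
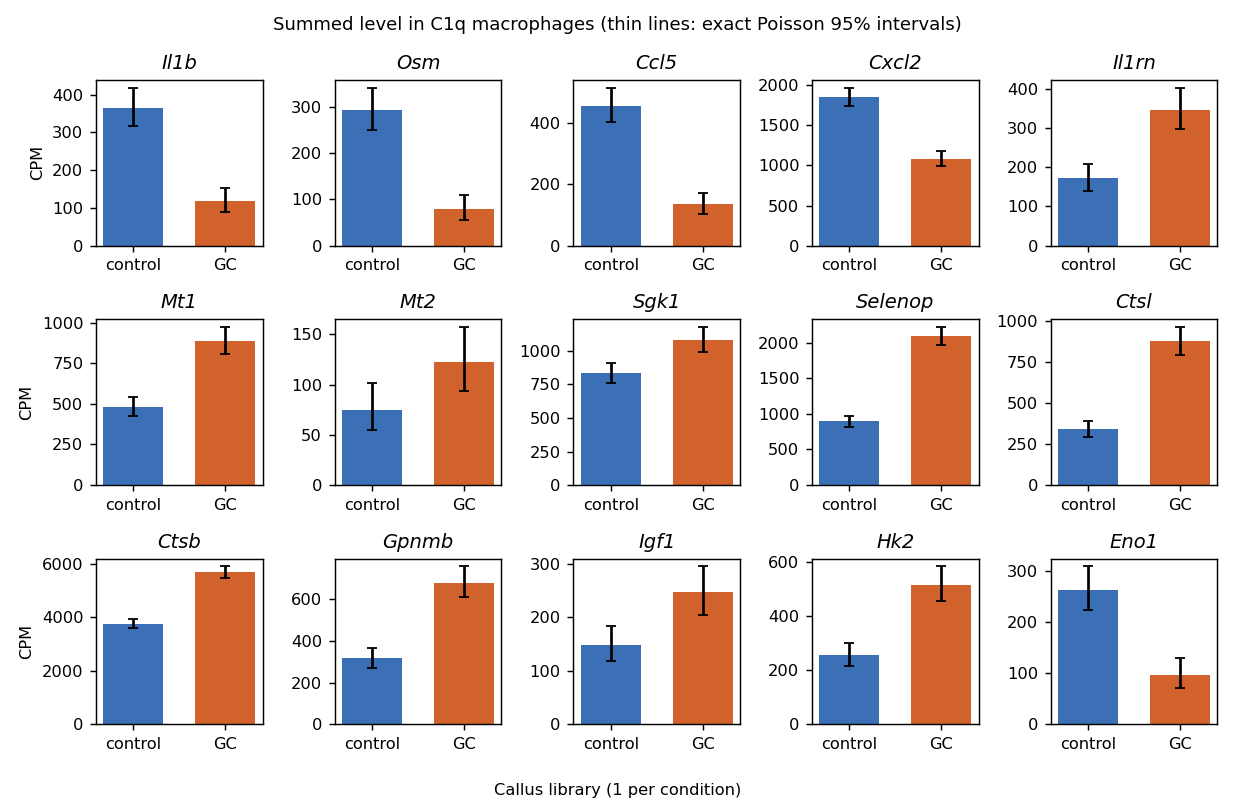
Summed level in CPM of 15 genes in C1q macrophages of the control (blue) and GC (orange) libraries, 1 library per condition, with exact Poisson 95% intervals as thin lines. Il1b, Osm, Ccl5, Cxcl2 and Eno1 were lower in GC and the others higher, with Sgk1 within 1.5-fold.

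Selenop and Hmox1 were higher in GC, although the lists they belong to, given further below, had more genes lower than higher. Selenop (chr15:3268547-3280508, plus strand) stood at 894 CPM (818 to 975) in control and 2090 (1964 to 2222) in GC, 2.34-fold higher (2.10 to 2.61), in 47 and 64 cells. It was higher in each cluster, from 179 to 513 CPM (Cxcl3), 1953 to 3995 (Slc40a1) and 80.0 to 246 (Acp5). Thinned shares were 36.8% (25.4% to 49.3%) and 49.3% (37.6% to 61.1%), with intervals that overlap. Monocytes held 86.1 and 92.7 CPM. Hmox1, which breaks down heme, stood at 1405 (1309 to 1505) and 2290 (2158 to 2428), and 73.3% of thinned GC cells held a UMI against 45.6% of control cells. In B cells its CPM were 66.7 and 257.

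All 21 lysosome genes were tested, and 4 were past 1.5-fold higher and 0 lower, with a median of 0.06, against 0.06 for all genes, both rounded to 2 decimals. Ctsl (chr13:64359337-64370890, minus strand), the protease cathepsin L, stood at 341 (295 to 392) and 876 (795 to 963), 2.57-fold higher (2.16 to 3.06), in 43 and 61 cells. Its thinned share was 17.6% (9.46% to 28.8%) in control and 49.3% (37.6% to 61.1%) in GC, against 1.54% and 0% of B cells. Ctsl was higher in each cluster, by 0.49, 1.41 and 1.70 on the log2 scale (Cxcl3, Slc40a1, Acp5). Ctsb, cathepsin B, stood at 3757 and 5684 CPM, Grn, progranulin, at 768 and 1177, and Gusb at 152 and 232, which are ratios of 1.51, 1.53 and 1.53 and thus close to the limit. After thinning the log2 ratio of Gusb changed sign, to -0.14. Ctsd, at 2681 and 2188, and Ctsz, at 745 and 577, were lower within 1.5-fold.

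Lipid handling showed 1 gene higher and 2 lower of 13 tested, with a median of 0.05. Gpnmb (chr6:49036546-49070929, plus strand), a glycoprotein of lipid-laden and phagocytic macrophages, stood at 315 (271 to 364) and 676 (606 to 753), 2.15-fold higher (1.79 to 2.59). Its log2 ratio was 0.65, 0.89 and 2.14 in the clusters led by Cxcl3, Slc40a1 and Acp5. Monocytes held 71.3 and 257 CPM. Trem2, a lipid receptor, stood at 385 (336 to 439) and 230 (190 to 277), and Plin2, which coats lipid droplets, at 554 and 363. Both were lowest in GC relative to control in the cluster led by Cxcl3, where Plin2 had a log2 ratio of -1.59, against -0.23 (Slc40a1) and -0.09 (Acp5), and Trem2 one of -2.16 from 28 and 4 UMIs, against -0.77 and -0.54. Apoe stood at 4026 and 4197 CPM, Lpl at 505 and 536, and the fatty acid receptor gene Cd36 at 210 (174 to 251) and 261 (218 to 310), each within 1.5-fold over all cells. In the cluster led by Acp5 Cd36 stood at 22.9 CPM (6.23 to 58.5) in control and 232 (161 to 325) in GC, from 4 and 34 UMIs, while its log2 ratio was 0.07 (Cxcl3) and -0.17 (Slc40a1) in the others. Apoe was also higher in GC in the cluster led by Acp5, at 617 and 1381 CPM, with 0.27 and -0.20 in the others. Of 23 fatty acid oxidation genes only Acsl1 reached 100 UMIs, at 85.7 and 108 CPM, and the list summed to 931 and 968 CPM. Cpt1a, which admits fatty acids to mitochondria, stood at 43.7 (28.3 to 64.6) and 34.6 (20.2 to 55.4).

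Glycolysis genes had 3 of 11 lower and 1 higher, against 8.41% and 11.9% of all genes, with a median of -0.29. The higher gene was Hk2, a hexokinase, at 257 CPM (217 to 302) and 517 (456 to 585), 2.01-fold. Its log2 ratios in the clusters were 0.37 (Cxcl3), 1.25 (Slc40a1) and 1.10 (Acp5). In monocytes Hk2 ran the other way, at 208 and 136 CPM. The lower ones were the glucose transporter gene Slc2a1 (140 and 77.4 CPM, with a log2 ratio of 0.04 in the cluster led by Slc40a1), Pgam1 (493 and 291) and Eno1 (264 and 97.8). Eno1, which encodes enolase, was 2.70-fold lower (1.94 to 3.82), in 47 and 29 cells. In the clusters its log2 ratio was -2.63 (Cxcl3), -0.68 (Slc40a1) and -1.01 (Acp5). Gapdh stood at 892 and 601 CPM, just within 1.5-fold.

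**Figure D5:**
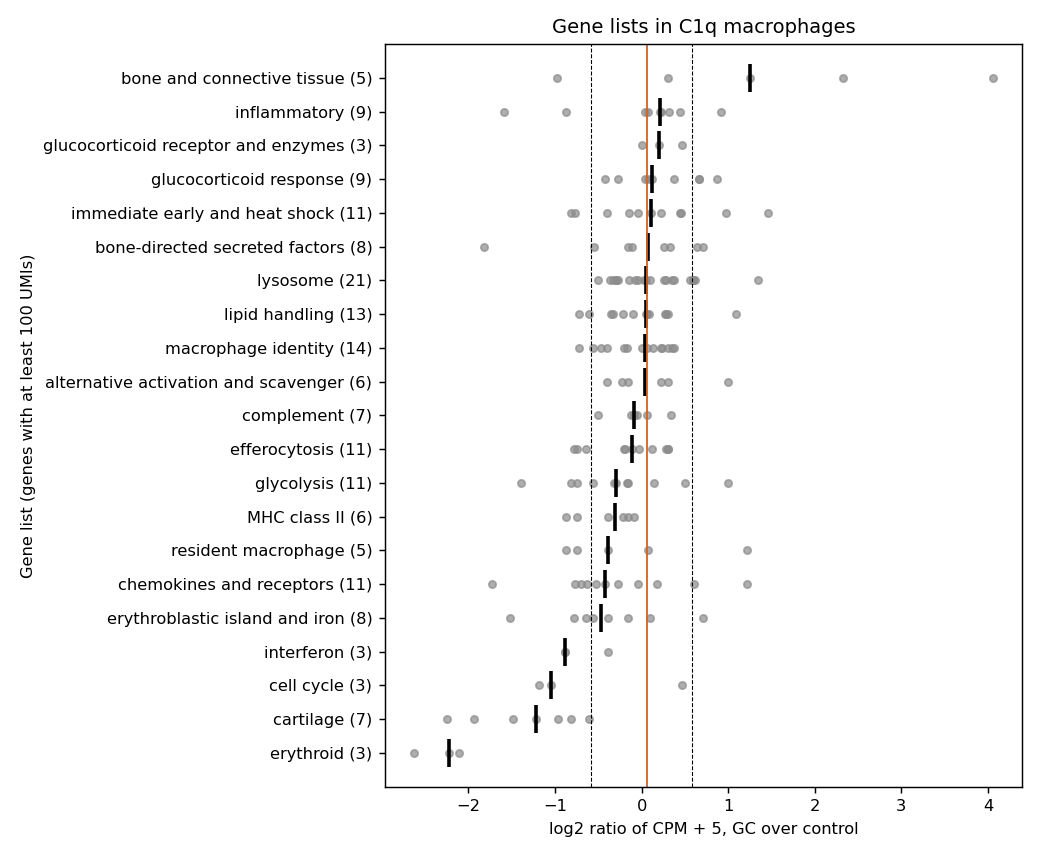
Log2 ratio of CPM + 5, GC over control, for the genes of each list with at least 100 UMIs (grey points, the number in parentheses). Black ticks are list medians, the orange line is the median of all genes tested (0.06), and the dashed lines mark 1.5-fold.

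Genes of resident and iron-handling macrophages were split. Beside Selenop, 2 of 5 resident macrophage genes tested were lower, Pf4 at 745 (676 to 819) and 405 (351 to 466) and Gas6 at 147 (117 to 182) and 85.6 (61.7 to 116), with a list median of -0.39. Pf4 ran the other way in the cluster led by Acp5, at 103 CPM (60.9 to 163) in control and 273 (195 to 372) in GC, from 18 and 40 UMIs, with log2 ratios of -0.79 (Cxcl3) and -1.32 (Slc40a1) in the others. Slc40a1 stood at 138 (109 to 172) and 44.8 (28.1 to 67.9), 3.08-fold lower (1.90 to 5.20), in 12 and 13 cells. Vcam1 stood at 229 (192 to 272) and 145 (113 to 182), and the TAM receptor gene Axl at 133 and 75.4. With Hmox1 higher, the list of erythroblastic island and iron genes had 1 higher and 3 lower of 8 and a median of -0.48. In the cluster led by Slc40a1, which had most UMIs of both, Gas6 stood at 337 and 180 CPM and Vcam1 at 533 and 265. Of the 131 control UMIs of Vcam1, 51 came from 1 cell, and its log2 ratio went from -0.65 to -0.12 without the highest cell of each library and to 0.44 among cells with at most 5% mitochondrial UMIs. The log2 ratio of Gas6 changed sign after thinning, to 0.11. Efferocytosis genes had 3 of 11 lower, Gas6, Axl and Sirpa, and 0 higher, against 8.41% and 11.9% of all genes. Mertk, another TAM receptor, stood at 29.7 (17.3 to 47.6) and 34.6 (20.2 to 55.4), with no difference detectable at this depth.

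Class II genes had 2 of 6 lower and 0 higher, against 8.41% and 11.9% of all genes, with a median of -0.30. The 2 were H2-DMa (154 and 81.5 CPM) and H2-DMb1 (126 and 73.3), which load peptides onto class II. H2-Aa stood at 2536 (2407 to 2670) and 2377 (2243 to 2518), a near equality that hid opposite directions in the clusters. It stood at 5319 CPM in control and 8809 in GC in the cluster led by Cxcl3, at 946 and 411 in that led by Slc40a1, and at 2228 and 636 in that led by Acp5. H2-Eb1 did the same, with log2 ratios of 0.63, -1.81 and -2.31, and Cd74 with 0.58, -0.84 and -1.84. Class II genes took part in the clustering, so these values within clusters are a description of where the cells were placed.

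Across the clusters, 9.82% of 397 genes were past 1.5-fold higher and 14.9% lower in the one led by Cxcl3, 12.4% and 13.6% of 477 in the one led by Acp5, and 13.8% and 13% of 756 in the one led by Slc40a1. Each asks for 100 UMIs within the cluster. The glucocorticoid response list had 2 higher and 0 lower of 4 in the first, 2 and 1 of 4 in the next and 2 and 1 of 6 in the last.

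Secreted factors that act on bone had 2 of 8 higher and 1 lower, against 11.9% and 8.41% of all genes, with a median of 0.08. Igf1 stood at 149 (119 to 184) and 246 (205 to 295), 1.66-fold higher (1.25 to 2.21), in 25 and 35 cells, and Spp1, osteopontin, at 1249 (1159 to 1344) and 1954 (1832 to 2081). Spp1 was lower in GC in the cluster led by Cxcl3, at 1066 and 504 CPM, and B cells held 606 and 363. The lower gene was Osm. Vegfa stood at 310 and 210 CPM and Tgfb1 at 280 and 251, within 1.5-fold. Bmp2 had 3 UMIs in control and 17 in GC, 5.25 CPM (1.08 to 15.3) and 34.6 (20.2 to 55.4), a ratio of 6.6 (1.91 to 35.2), with 10 of the 17 in 1 cell. B cells held 5.34 and 18.6 CPM of Bmp2 and osteoclasts 8.06 and 57.1. After thinning, 0 of 68 and 0 of 75 C1q macrophages held a Bmp2 UMI, which allows up to 4.41% and 4%, against 3.76% of GC B cells, so no order is read from Bmp2.

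Of 14 macrophage identity genes tested only Trem2 was past 1.5-fold, and the median was 0.03. Aif1 stood at 413 and 279 CPM. The complement list had 0 of 7 past 1.5-fold, of which the 3 C1q genes were used by the rule, with C3ar1 at 243 and 308 CPM, C5ar1 at 161 and 151 and the properdin gene Cfp at 199 and 187. Of genes of monocyte origin 2 were tested and 1 was lower, Thbs1 (824 and 448 CPM). Alternative activation genes had 1 of 6 higher, Il1rn, and 0 lower. Interferon genes had 2 of 3 lower, Bst2 (147 and 77.4 CPM) and Ifitm3 (313 and 167), and Ifi27l2a stood at 443 and 336. Of genes expressed early after stimulation or under heat shock, Fos (537 and 314 CPM) and Ier3 (432 and 242) were lower. Fosb, at 233 and 462, and Egr1, at 98.0 and 279, were higher, but 89 of 227 GC UMIs of Fosb and 92 of 137 of Egr1 came from a single cell. Proliferation genes had 2 of 3 tested lower, Top2a (131 and 55.0 CPM) and Stmn1 (353 and 169), while Pcna stood at 227 and 316. Mki67, under 100 UMIs, stood at 117 and 44.8 CPM, in 15 and 8 cells.

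The rule for named genes took the 12 highest and 12 lowest ratios, and single cells carried many of them. At the low end, Hbb-bs, Hba-a2, Hbb-bt and Hba-a1 came from 1 control cell of 934 UMIs, 368 of 404 Hbb-bs UMIs among them. In that cell 66.8% of the UMIs were of marker genes of other cell types, and Csf1r, Mrc1, Adgre1, Ptprc and Lyz2 were at 0. At the high end, Tnc, Postn, Mmp13, Phex, Serpine2, Gpx3, Ibsp and Lifr came mostly from 1 GC cell of 31429 UMIs, which held 508 of 615 Ibsp, 400 of 413 Mmp13 and 90 of 96 Postn UMIs. The same cell held 14 UMIs of Mrc1 and 10 of Csf1r, and was 1 of 6 GC C1q macrophages among the 428 cells of that library left out for high Scrublet doublet scores. Without the highest cell of each library, the log2 ratio went from -2.63 to 0.66 for Hbb-bs, from 3.04 to -1.15 for Mmp13 and from 2.32 to -0.025 for Ibsp.

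Of the other genes of the rule, Edn1, endothelin 1, stood at 12.2 CPM (4.92 to 25.2) in control and 104 (77.4 to 137) in GC, in 4 and 11 cells. Csf1, the ligand of Csf1r, stood at 14.0 (6.04 to 27.6) and 102 (75.6 to 134), also in 4 and 11 cells, with 28 of the 50 GC UMIs in 1 cell. Rnd3 and Frmd6 were higher as well, at 14.0 and 99.8 CPM and at 5.25 and 57.0. All 4 kept a log2 ratio over 2 without the highest cells. Cxcl3, Osm and Ccl5 of the low end are given above, and the remaining low genes were Birc5 (108 and 22.4 CPM), the transcription factor gene Nfil3 (66.5 and 14.3), Ly6c2 (59.5 and 14.3), the lactate exporter gene Slc16a3 (75.2 and 20.4) and Hspa1a, where 34 of the 45 control UMIs were in 1 cell.

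Genes spread over many cells were listed by a rule added after the values had been seen, which asks for a UMI in at least 20 cells of the higher library and at most 20% of its UMIs in 1 cell. Of 699 genes that passed, the highest ratio was that of Cited2, a transcriptional coregulator, at 73.5 CPM (52.9 to 99.3) in control and 322 (274 to 376) in GC, 4.38-fold higher (3.10 to 6.31), in 24 and 45 cells. B cells held 133 and 55.8 CPM of Cited2, so its control level was under theirs, as was that of Rhob (142 and 68.2 in B cells). Next came Lhfpl2 (99.7 and 326 CPM), Ctsl, Mcfd2 (78.7 and 198) and Rhob (129 and 316), then Selenop. Ahnak, a large scaffold protein, stood at 1058 and 2267 and Atp6v1h, a subunit of the lysosomal proton pump, at 110 and 236. The lowest ratios were those of Osm, Il1b, Eno1, Clec4n (143 and 59.1 CPM), Socs3 and Cd300c2 (170 and 79.4). The rule sets no limit in the lower library, where Il1b was in 10 GC cells with 38 of 58 UMIs in 1 cell. In monocytes, Cited2 stood at 146 and 248 CPM, Lhfpl2 at 63.0 and 156 and Ahnak at 1288 and 2214, each in the same direction. Clec4n ran the other way there, at 60.8 and 99.7 CPM, while Mcfd2 (84.4 and 96.2), Rhob (103 and 110.4) and Selenop differed little in monocytes, and Atp6v1h stood at 73.5 and 65.8.

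Genes of other cell types were present at low levels in most C1q macrophages and differed between the libraries. UMIs of the cartilage, bone, B cell, T and NK cell, neutrophil, erythroid and endothelial lists made up a median of 0.607% of a control cell and 0.279% of a GC cell, and more than 2% in 1 and 3 cells. All 7 cartilage genes tested were lower in GC, with a median of -1.22. The 14 genes of that list were all present in both libraries and summed to 3836 and 1595 CPM, with Col2a1 its most abundant gene in control and Col10a1 in GC. B cells held as much, 4870 and 2077 CPM, and monocytes 3925 and 1290. Col2a1 was also limited by the rule. The part of free RNA in the levels of other genes was not tested.

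The bone and connective tissue list had 3 of 5 higher and 1 lower, with a median of 1.25, and summed to 1950 and 3127 CPM, Sparc its most abundant gene in control and Ibsp in GC. Its higher genes, Ibsp, Postn and Col1a2, rested on the GC cell of 31429 UMIs. Leaving out the cells over 2% turned the median to -0.61. Erythroid genes summed to 1170 and 202 CPM, endothelial genes to 164 and 20.4, with Emcn highest in control and Flt1 in GC, neutrophil genes to 264 and 128, and T and NK cell genes to 50.7 and 10.2. B cell genes summed to 82.2 and 69.3 CPM with Ms4a1 and Pax5 at 0, and dendritic cell genes to 89.2 and 38.7, most of it Ccr7 in control. The osteoclast list, Acp5 and Ctsk of the rule included, summed to 399 and 424 CPM, with Calcr and Oscar at 0 and Mmp9 at 14.0 and 10.2 CPM. The part of these genes in the differences between the libraries was not tested.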

How the data were processed

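Counts of UMIs per gene and barcode, without normalization, were deposited by the authors for 4 libraries. The matrix headers name Cell Ranger version 4 (cellranger 4.0.0), while the submitters' processing notes name Cell Ranger 5.0.1, Seurat 3.2.0 and mm10. The 4 matrices were read with Python 3.11.15, numpy 2.4.6, pandas 2.3.3 and scipy 1.17.1. Cells needed 500 UMIs, 200 genes and at most 10% mitochondrial UMIs, and doublets were not removed, Scrublet being run as an alternative only. Levels are CPM of summed UMIs with exact Poisson intervals, the interval of a share is Clopper-Pearson, and that of a ratio comes from the binomial distribution of its counts given their sum, each at 95%. The limit for a count of 0 is 3 counts of the total. A gene entered with 100 or more UMIs in the callus libraries together, its log2 ratio had 5 CPM added to each level, and the limit was 1.5-fold. For shares of cells with a UMI, each cell was thinned to 1000 UMIs. Clusters came from scanpy 1.11.5 with igraph 0.11.9 (1500 variable genes, 20 components, 15 neighbors, Leiden resolution 0.6). Ratios and intervals were checked on simulated Poisson and binomial counts. These held no variation between cells, so the check does not cover genes with many UMIs in 1 cell. Monocytes needed Csf1r with Ly6c2, and B cells Cd79a with Cd79b, at 0.05% and 3 UMIs. Osteoclasts needed Acp5 with Ctsk at 0.2% and 3 Acp5 UMIs. These classes kept the S100a8 and Col2a1 limits, and a barcode that met more than 1 of their rules was left out.

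The members and the 29 gene lists (408 genes, 405 matched) were chosen with earlier results of these data known. Clec7a and Mx1 were not matched, and Aldoa, which has a duplicated symbol, was left out. Named genes are those of the lists and the 12 highest and 12 lowest ratios of GC over control among genes of at least 50 CPM in 1 library and at least 2-fold the level of B cells. For the comparisons with monocytes and osteoclasts, the 10 genes with the largest difference in both libraries each way were taken. A rule for genes spread over many cells was added after the values had been seen. Alternatives covered depth, the C1q and mitochondrial limits, doublets, scaling, pseudocount, minimum UMIs, thinning and clustering. Gene positions come from GENCODE M21 and promoters from RefSeq, both on GRCm38.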

Additional observations from a re-analysis of the deposited data

How the results depend on the processing

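No paired analysis was possible because each condition has 1 library and no test was run. Over 97 single genes, 1075 values under an alternative stayed within the counting interval of the log2 ratio, 129 moved beyond it and 39 changed sign, and of the medians of gene lists 27 moved and 5 changed sign. A change of sign was counted only where the main value was at least 1.5-fold either way. Smaller values, most list medians among them, were judged by the interval alone, so their changes of sign are not in these numbers. No alternative turned Osm, Il1b, Mt1, Selenop, Ctsl or Gpnmb. Thinned values with fewer than 10 UMIs are not given. The numbers of genes past 1.5-fold, 210 higher and 149 lower, became 18 and 26 of 208 genes when cells were thinned to 1000 UMIs, 405 and 299 at a minimum of 50 UMIs, 28 and 38 at 500 UMIs, 101 and 67 among genes at 2-fold or more of B cells, and 37 and 30 past 2-fold. Resolution 0.3 gave 2 clusters, of 101 and 47 cells, and resolution 1 gave 6. Without the cluster led by Acp5 and S100a4, chosen after the clusters were seen, the numbers were 151 and 142 of 1228.

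Most log2 ratios counted as changing sign were of genes with many of their UMIs in 1 cell, and Gas6 and Gusb were not. With at least 2000 UMIs per cell they were 0.84 (Hbb-bs), 1.70 (Hba-a2), 1.05 (Hbb-bt) and 1.21 (Hba-a1). With cells over 2% of other-cell UMIs left out they were 0.78, 1.5, 1.05 and 1.13 for the same genes, -0.053 for Postn, -1.94 for Mmp13, -0.51 for Phex, -0.34 for Serpine2, -0.13 for Ibsp, -0.053 for Lifr, -0.0553 for Egr1 and -0.59 for Col1a2. Without the highest cell of each library, chosen after the values were seen, they were 0.66 (Hbb-bs), 1.43 (Hba-a2), 0.88 (Hbb-bt), 0.97 (Hba-a1), -1.15 (Mmp13), -0.025 (Ibsp) and -0.42 (Col1a2). With the highest Scrublet scores left out (1 control and 6 GC C1q macrophages of 407 and 428 cells) they were -1.58 (Mmp13), -0.10 (Phex), -0.088 (Serpine2), -0.20 (Ibsp), -0.021 (Lifr), -0.11 (Egr1) and -0.52 (Col1a2). At a C1q share of at least 0.1% they were -1.48 (Mmp13), -0.51 (Phex), -0.27 (Serpine2), -0.062 (Ibsp) and -0.56 (Col1a2). Thinning gave 1.25 (Hbb-bs), 0.11 (Gas6) and -0.14 (Gusb), and at most 5% mitochondrial UMIs gave 0.44 for Vcam1, where the cause was not tested. The median of the bone and connective tissue list was -0.49 at a C1q share of 0.1%, -0.54 without the Scrublet cells, -0.61 without the cells over 2% and -1.42 with thinning, and that of the cell cycle list was 0.46 among genes at 2-fold or more of B cells, where 1 gene was left. Depth limited the genes with few UMIs, such as Fkbp5 with 10 and 14.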
